A study of Mus musculus with 12 samples.

Results

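The galectin genes measured here were 7 rows of a table of 57186 mouse genes, namely Lgals1, Lgals2, Lgals3, Lgals4, Lgals8, Lgals9 and Lgals3bp. They were chosen by name, with the counts of these same libraries by line and treatment already known, and no threshold was applied. Their levels and changes are therefore given as a description, and p-values from the fits across all genes carry no independent weight for them. RNA was sequenced from 3 tumor cell lines of DDKC mice, DDKC_9750, DDKC_9790 and DDKC_9804, each untreated and treated with recombinant DKK3 protein (rDKK3) in the medium, in duplicate libraries that came to 12. DDKC mice are Dkk3-/- in every cell and develop pancreatic tumors with a Cre recombinase that is driven in the pancreas (Ptf1a Cre/+). Untreated and treated cells share this genotype, and no line with an intact Dkk3 gene was compared. The concentration of rDKK3 for these cultures, its time of action and the age of the mice are not given in the text used here.

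Galectins are lectins that bind β-galactoside sugars on glycoproteins through a conserved carbohydrate-recognition domain. They are made in the cytosol and leave the cell without a signal peptide, so they act both inside the cell and on the cell surface, where they crosslink glycoproteins. In pancreatic cancer they are known from tumor cells and from the stroma, where they take part in adhesion, growth signaling and immune evasion. Galectin-1 (Lgals1) and galectin-2 (Lgals2) have a single domain and form dimers. Galectin-3 (Lgals3) joins its domain to a long N-terminal tail through which it forms oligomers, and Lgals3bp encodes a secreted glycoprotein that binds galectin-3. Galectin-4 (Lgals4), galectin-8 (Lgals8) and galectin-9 (Lgals9) hold a pair of domains on the same chain. Galectin-4 is typical of the gut epithelium, galectin-8 marks damaged endosomes for autophagy, and galectin-9 is a ligand of the immune receptor TIM-3.

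Untreated libraries held between 7520741 and 24541083 counts and rDKK3 libraries between 3822987 and 11567095, with medians of 14250180 and 6579895.5. In every line the treated library held fewer counts than the untreated one, among both the lower and the higher library numbers. The part of depth in the changes was not tested. Levels are given in CPM (counts relative to the TMM-normalized library size), and the floor of 3 counts lay between 0.127 and 0.755 CPM, which covers counting error only. Paired libraries of a line and condition fell within sampling noise of each other when each gene was allowed a shift between lower and higher library numbers (deviance 0.764 per degree of freedom over 12979 genes, 6.39 without the shift). They were summed and counted as 1 sample, which left 6 samples and n = 3 lines. Dkk3 itself had 1 count over all libraries, with 11 of 12 libraries at 0. Of the epithelial markers Krt8, Krt18, Krt19, Cdh1 and Epcam, the summed level was 4534 to 9138 CPM in untreated and 3507 to 7481 CPM in treated samples, although Epcam alone stayed between 0.41 and 2.04 CPM. The mesenchymal markers Vim, Fn1, Cdh2 and Zeb1 summed to 7625 to 20690 CPM and 7538 to 22240 CPM. Vim went from 2595 to 1614 CPM in DDKC_9750, from 4795 to 3411 CPM in DDKC_9790 and from 3379 to 2760 CPM in DDKC_9804. Krt8, Krt18 and Krt19 were also lower with rDKK3 in each line, whereas Fn1 was higher in each. Cdh1, Epcam, Cdh2 and Zeb1 went both ways between lines. Galectins are also abundant in leukocytes and fibroblasts. The 6 leukocyte markers summed to 9.54 to 29.1 CPM in untreated and 10.5 to 46.1 CPM in treated samples, with Adgre1 and Cd3e at 0, and the 5 fibroblast markers to 2.48 to 13.0 CPM and 5.26 to 11.6 CPM. Their part in the galectin levels was not tested.

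All 7 genes passed the filter on low counts. Per kilobase of canonical transcript, Lgals1 had the highest level in untreated cells, with 846 ± 125 CPM per kb (SD, n = 3 lines). Lgals3bp followed with 311 ± 76.8, Lgals3 with 256 ± 104, Lgals9 with 73.7 ± 52.6, Lgals2 with 33.4 ± 29.7, Lgals8 with 20.3 ± 2.62 and Lgals4 with 10.8 ± 11.7 CPM per kb (SD, n = 3 lines each). Lgals1 exceeded Lgals3bp in 6 of 6 samples. Lgals3bp exceeded Lgals3, Lgals3 exceeded Lgals9 and Lgals9 exceeded Lgals2 in 5 of 6 samples each, while Lgals2 exceeded Lgals8, and Lgals8 exceeded Lgals4, in 4 of 6. Below Lgals1, neighbors in the order thus did not separate in every sample. With coding length in place of transcript length, Lgals3 (444 ± 180 CPM per kb) stood above Lgals3bp (419 ± 103 CPM per kb; SD, n = 3 lines), in 3 of 6 samples.

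**Figure D1:**
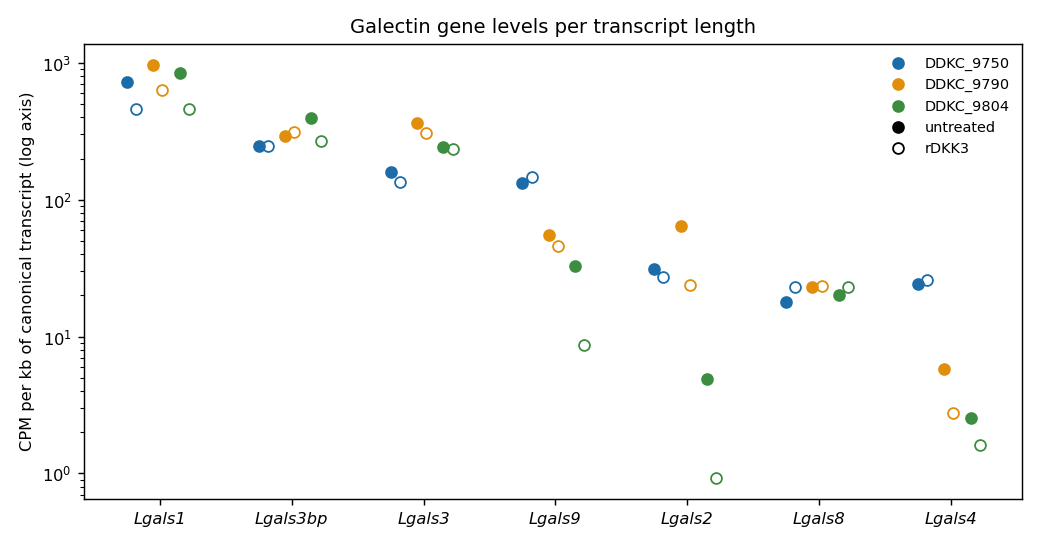
CPM per kilobase of canonical transcript (log axis) of each gene in the 6 summed samples, with filled circles for untreated and open circles for rDKK3-treated cells and a color for each line. Lgals1 lies highest in every sample, whereas Lgals2, Lgals9 and Lgals4 spread widely between the lines.

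The lines differed far more in some galectins than in others. Between the lowest and the highest untreated line, levels spanned 13.1-fold for Lgals2, 9.57-fold for Lgals4 and 4.07-fold for Lgals9, but 2.29-fold for Lgals3, 1.61-fold for Lgals3bp and 1.29-fold for Lgals8, with Lgals1 between the last 2. In treated cells the span was 29.4-fold for Lgals2, 16.8-fold for Lgals9 and 16.2-fold for Lgals4, and at most 2.28-fold for the others. In the fit across all genes, the difference between lines had an adjusted p under 0.05 for 4 of 7 members, Lgals2, Lgals3, Lgals4 and Lgals9, against 35.3% of all 15165 genes tested (quasi-likelihood test of edgeR, Benjamini-Hochberg adjusted). Of the pairs of lines, DDKC_9790 against DDKC_9750 gave 2 of 7 members (27% of all genes), DDKC_9804 against DDKC_9750 gave 4 of 7 (18.5%) and DDKC_9804 against DDKC_9790 gave 1 of 7 (21.3%). With 1 sample left out these counts ran from 0 to 3, from 3 to 4 and from 0 to 4, with 0 for both pairs that hold DDKC_9790 when either of its samples was left out and 4 for the last pair without either DDKC_9750 sample. DESeq2 gave 4 members in each pair, and no filter on low counts gave 3, 4 and 3. Over all genes, 6243 differed between lines with DESeq2 and 6781 with no filter, against 5348 in the fit above. The share of all genes per pair was not counted in these fits or with 1 sample left out. The moves in these pair counts therefore cannot be told apart from moves over all genes. With the 12 libraries as separate samples 6 members passed (77.7% of all genes), and with DESeq2 5 did (41.2%), Lgals1 among them. Without the untreated sample of line DDKC_9790, only Lgals4 of these genes kept an adjusted p under 0.05 for the difference between lines (7.06% of all genes had one), and without the treated sample of that line Lgals2 and Lgals4 did (7.77%). The p-values measure the spread between these samples alone. Each line had 1 summed sample per condition, so on the summed samples they rest on how unequally the lines responded to rDKK3. No spread between cultures of a line was measured.

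The response to rDKK3 differed in sign between the genes and, for several, between the lines. The log2 fold change was below 0 in all 3 lines for 3 of 7 members, Lgals1, Lgals2 and Lgals3, against 18.2% of all genes tested. Among protein-coding genes with canonical transcripts under 1000 bases, as for Lgals1 and Lgals2, 44.8% were lower in all 3 lines. In the next longer class, which holds Lgals3 (1377 bases) and Lgals9 (1546 bases), 31.6% were, with a median of -0.12 (log2). Both shares lay above the 19.1% of all protein-coding genes with a length. The part of transcript length in the count of 3 members was not tested. The log2 fold change was above 0 in all 3 lines for 1 member, Lgals8, against 14.2%. In the lower library numbers alone, Lgals8 in DDKC_9790 was at -0.06, so no member was higher in all 3 lines there. By line, 4 members were lower with rDKK3 in DDKC_9750, 5 in DDKC_9790 and 6 in DDKC_9804. Those in DDKC_9750 include Lgals3bp, at a log2 fold change of only -0.003. The share of all genes lower in each line was not counted. The median log2 fold change of the members was -0.51, the value of Lgals4, and 0.00 in DDKC_9750, -0.28 in DDKC_9790 and -0.64 in DDKC_9804. Over all genes tested the median was -0.01, and -0.005, 0.00 and -0.04 in these lines. With the 3 lines as the replicates, 0 of 7 members had an adjusted p under 0.05 (0.00659% of all genes, 1 gene), and 2 members, Lgals1 and Lgals2, had an unadjusted p under 0.05 (8.53%) in the same edgeR fit. With the 12 libraries taken as separate samples, which counts the paired libraries as replicates, 3 members were lower with an adjusted p under 0.05 (10.1% of all genes) and 0 were higher (7.95%), and 6 had an unadjusted p under 0.05 (32.9%). DESeq2 on the summed samples gave 1 member, Lgals1 (0.679% of all genes). For a single gene, the smallest two-sided p of an exact permutation over 3 line pairs is 0.25. In bulk RNA, fewer cells that express a gene and less of its RNA per cell cannot be told apart.

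**Figure D2:**
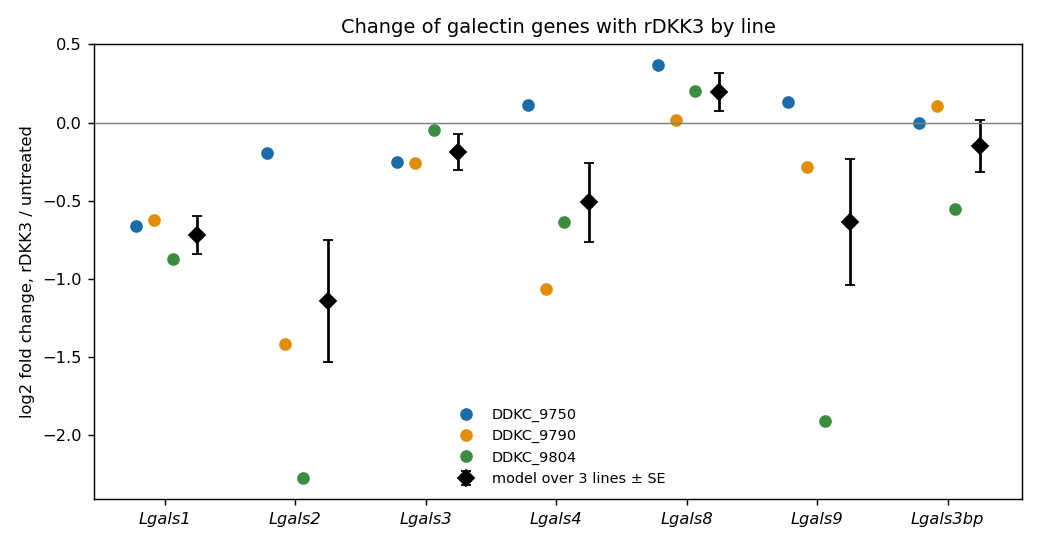
Log2 fold change of each gene, rDKK3 over untreated, in the 3 lines (circles) and in edgeR's fit over the lines (diamonds, bars are ± 1 SE). The 3 lines lie close together for Lgals1 and far apart for Lgals2 and Lgals9, where line DDKC_9804 lies lowest.

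Lgals1 (ENSMUSG00000068220.7, chromosome 15 of GRCm39, 78810925 to 78814665, plus strand) was the most abundant galectin and was lower with rDKK3 by a similar amount in each line. It measured 617 CPM in untreated and 391 CPM in treated cells of line DDKC_9750, 830 and 539 CPM in DDKC_9790, and 723 and 395 CPM in DDKC_9804. The mean went from 724 ± 106 to 441 ± 84.2 CPM (SD, n = 3 lines). The highest treated sample lay below the lowest untreated one, so the conditions did not overlap in any library, as for 0.791% of all genes. The log2 fold change was -0.66, -0.62 and -0.87 in the 3 lines and -0.72 in the fit (SE 0.12, unadjusted p = 0.00163, adjusted p = 0.578 by edgeR with Benjamini-Hochberg adjustment). Of all genes tested, 3.71% had a lower log2 fold change. With the 12 libraries as separate samples the adjusted p of Lgals1 was 4.63e-05, and in DESeq2 it was 0.000132. The canonical transcript of Lgals1 is short, at 855 bases. Protein-coding genes with canonical transcripts under 1000 bases stood at a median of -0.24 on the log2 scale, and 44.8% of these 493 genes were lower in all 3 lines, compared with 19.1% of all 12425 protein-coding genes with a length. The part of transcript length in the change was not tested. Between lines Lgals1 differed less, with an adjusted p of 0.114 in edgeR's test.

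Lgals2 (ENSMUSG00000043501.6, chromosome 15, 78735060 to 78739729, minus strand), the other dimer-forming galectin, was present in lines DDKC_9750 and DDKC_9790 and scarce in DDKC_9804. It went from 24.9 to 21.8 CPM in DDKC_9750, from 51.4 to 19.2 CPM in DDKC_9790 and from 3.94 to 0.739 CPM in DDKC_9804, where the treated sample rests on 9 counts (95% exact Poisson interval 0.338 to 1.40 CPM). Treated libraries lay below untreated ones within each line, but the conditions overlapped across lines. The log2 fold change was -0.20, -1.42 and -2.28 in the 3 lines and -1.14 in the fit (SE 0.39, adjusted p = 0.578 in edgeR's test, and 0.0124 with the 12 libraries as separate samples). It was -0.82 without line DDKC_9804 and -1.69 without line DDKC_9750. In the same test, line DDKC_9804 was lower than DDKC_9750 by a log2 difference of -3.50 (SE 0.51, adjusted p = 0.0133, but -4.57 without the untreated DDKC_9804 and -2.83 without the treated DDKC_9750 sample) and lower than DDKC_9790 by -3.89 (SE 0.51, adjusted p = 0.0106, but 0.113 and 0.0594 without the untreated or the treated sample of DDKC_9790). The latter difference was -5.02 without the untreated DDKC_9804 sample. Its canonical transcript of 802 bases falls in the same short class as that of Lgals1. Lgals1 and Lgals2 were the 2 of 7 members whose treated libraries lay below the untreated ones in all 3 lines, which 8.51% of all genes did.

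Lgals3 (ENSMUSG00000050335.18, chromosome 14, 47605208 to 47623617, plus strand) varied mainly between lines. It measured 220 CPM untreated and 184 CPM treated in DDKC_9750, 504 and 420 CPM in DDKC_9790, and 332 and 322 CPM in DDKC_9804. Line DDKC_9790 had the most Lgals3 and DDKC_9750 the least in both conditions. Line DDKC_9790 exceeded DDKC_9750 by a log2 difference of 1.19 (SE 0.14, adjusted p = 0.00854) and DDKC_9804 exceeded DDKC_9750 by 0.70 (SE 0.14, adjusted p = 0.0297 in edgeR's test). The latter passed no longer without the treated sample of DDKC_9750, that of DDKC_9804 or either sample of DDKC_9790, with adjusted p-values of 0.0921 to 0.126 in the same test, and the former not without either sample of DDKC_9790 (0.0911 and 0.117). The log2 fold change with rDKK3 was small, at -0.25 in DDKC_9750, -0.26 in DDKC_9790 and -0.05 in DDKC_9804, and the libraries of DDKC_9804 overlapped. In the fit it was -0.19 (SE 0.12, adjusted p = 0.671, and 0.0350 with the 12 libraries as separate samples, in edgeR's test).

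Lgals3bp (ENSMUSG00000033880.12, chromosome 11, 118283577 to 118292918, minus strand), the partner of galectin-3, was like Lgals3 lowest in DDKC_9750 in both conditions. Its changes with rDKK3 differed from those of Lgals3. It measured 574 and 573 CPM in DDKC_9750, 677 and 727 CPM in DDKC_9790, and 922 and 630 CPM in DDKC_9804, untreated and treated. Treated libraries were thus lower in DDKC_9804, higher in DDKC_9790 and overlapped in DDKC_9750. Libraries that lay apart in opposite directions in different lines, as here and for Lgals4 and Lgals9, were found for 37.8% of all genes. The log2 fold change was 0.00, 0.10 and -0.55 by line and -0.15 in the fit (SE 0.17, adjusted p = 0.809 in edgeR's test), and it turned to 0.05 without line DDKC_9804. Every library of DDKC_9750 lay below every library of the other lines. The adjusted p for the line was 0.277 by edgeR on the summed samples and 0.0172 with the 12 libraries as separate samples.

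**Figure D3:**
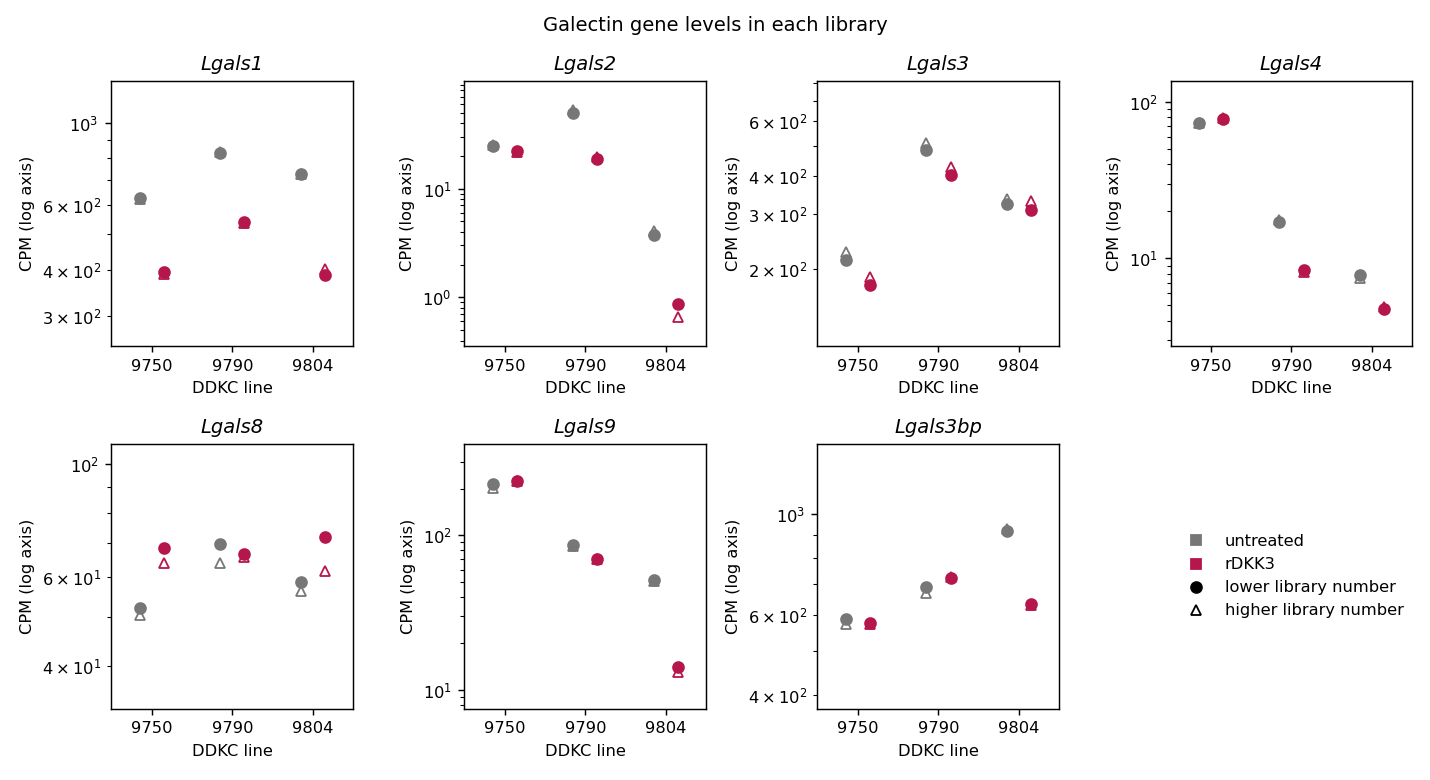
CPM (log axes, a range of its own for each gene) in all 12 libraries by line, gray for untreated and red for rDKK3, with circles for the lower and triangles for the higher library number. The 2 libraries of a line and condition lie close together, and red points lie below gray ones in all 3 lines for Lgals1 and Lgals2.

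Among the galectins with a pair of domains, Lgals4 (ENSMUSG00000053964.18, chromosome 7, 28533279 to 28541133, plus strand) was largely a gene of line DDKC_9750. It measured 72.6 and 78.5 CPM there, 17.4 and 8.27 CPM in DDKC_9790, and 7.59 and 4.85 CPM in DDKC_9804, untreated and treated. Line DDKC_9790 was lower than DDKC_9750 by a log2 difference of -2.65 (SE 0.32, adjusted p = 0.00844, but 0.0524 and 0.0731 without the untreated or the treated sample of DDKC_9790) and DDKC_9804 was lower than DDKC_9750 by -3.66 (SE 0.33, adjusted p = 0.00442 in edgeR's test). With rDKK3 the log2 fold change was 0.11 in DDKC_9750, -1.07 in DDKC_9790 and -0.64 in DDKC_9804, and -0.51 in the fit (SE 0.25, adjusted p = 0.626 in edgeR's test). It was -0.23 without line DDKC_9790 and -0.87 without line DDKC_9750. Some mouse strains carry Lgals6, a near-identical copy of Lgals4. No row of the table bears that name, so counts on Lgals4 are uncertain where reads of such a copy could fall on it.

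Lgals8 (ENSMUSG00000057554.14, chromosome 13, 12454296 to 12479825, minus strand) was the most even gene across samples. It measured 50.7 and 65.5 CPM in DDKC_9750, 65.5 and 66.3 CPM in DDKC_9790, and 56.9 and 65.4 CPM in DDKC_9804, untreated and treated. Treated libraries lay above untreated ones in DDKC_9750 and DDKC_9804 and overlapped with them in DDKC_9790. By line it changed by 0.37, 0.02 and 0.20 on the log2 scale, and by 0.20 in the fit (SE 0.12, adjusted p = 0.670 in edgeR's test, and 0.0796 with the 12 libraries as separate samples). It was 0.12 without line DDKC_9750 and 0.29 without DDKC_9790.

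Lgals9 (ENSMUSG00000001123.16, chromosome 11, 78853800 to 78875772, minus strand) followed the line order of Lgals4. It measured 206 and 225 CPM in DDKC_9750, 85.7 and 70.5 CPM in DDKC_9790, and 50.5 and 13.4 CPM in DDKC_9804, untreated and treated. Line DDKC_9750 stood highest in both conditions, and the treated sample of DDKC_9804 lay far below all others. Its log2 fold change was 0.13, -0.28 and -1.91 in the 3 lines and -0.64 in the fit (SE 0.40, adjusted p = 0.673 in edgeR's test), but -0.07 without line DDKC_9804 and -1.04 without line DDKC_9750. The difference of -2.93 between DDKC_9804 and DDKC_9750 (log2, SE 0.52) reached 0.0209 after adjustment in edgeR's test, and ranged from -3.97 to -2.13 with 1 sample left out, the untreated or the treated one of DDKC_9804. For DDKC_9790 against DDKC_9750 it was -1.51 (SE 0.48, adjusted p = 0.0717), and ranged from -1.99 to -0.82 without the untreated or the treated sample of DDKC_9750. It passed with the 12 libraries as separate samples (0.00107, and 0.00172 with the library number series), with no filter on low counts (0.00439), with DESeq2 (0.0054), in the lower library numbers (0.0432) and without the untreated DDKC_9750 sample (0.00844) or either DDKC_9804 sample (0.00898 and 0.00899).

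The sequences 250 bases before to 50 bases after the annotated start were searched on both strands for 6 motifs. These were the GC box GGGCGG, the STAT motif TTCNNNGAA, the AP-1 motif TGANTCA, the TATA box TATAAA, the interferon-stimulated response element (GAAA repeated after a gap of 2 bases) and a κB-like motif (GGGA and CC with 4 bases between them). They come from RefSeq on GRCm38.p6, another build than that of the counts, and 6 of 7 members were matched, all except Lgals1. The promoters of Lgals9 and Lgals2 are shown because these genes had the lowest log2 fold changes of any member in a single line, both in DDKC_9804. Capitals mark the motif matches. No matches overlapped in Lgals9, and Lgals2 had none.
Lgals9, chr11:78984875-78985174, minus strand: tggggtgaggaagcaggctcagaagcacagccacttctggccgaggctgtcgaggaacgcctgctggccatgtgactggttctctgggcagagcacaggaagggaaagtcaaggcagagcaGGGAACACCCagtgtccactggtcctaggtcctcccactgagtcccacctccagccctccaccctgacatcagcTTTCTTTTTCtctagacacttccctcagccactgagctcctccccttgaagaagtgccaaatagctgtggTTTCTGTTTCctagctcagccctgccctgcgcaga
Lgals2, chr15:78855480-78855779, minus strand: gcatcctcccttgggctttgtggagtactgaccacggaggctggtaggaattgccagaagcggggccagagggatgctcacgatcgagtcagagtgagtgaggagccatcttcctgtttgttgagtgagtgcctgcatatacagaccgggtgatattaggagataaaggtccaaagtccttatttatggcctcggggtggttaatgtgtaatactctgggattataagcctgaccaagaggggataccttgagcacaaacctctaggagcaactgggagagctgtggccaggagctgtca
Lgals9 held 2 interferon-stimulated response element matches, both on the strand opposite to the gene and beginning at positions -55 and 16 from the start, and 1 κB-like match at position -129. Of all 32851 promoters, 3.44% held the former and 20.7% the latter. Lgals3 held 2 matches each to GGGCGG and the κB-like motif, and Lgals4 held 1 to GGGCGG, which 35.7% of promoters held. TTCNNNGAA (8.3% of promoters), TGANTCA (7.81%) and TATAAA (13.6%) were in none of the 6 windows. A match describes letters in the window and shows no binding.

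The other 7 rows of the galectin family were mostly silent. Grifin and Lgals1-ps2 had 0 counts, Lgals12 and Lgals1-ps1 had 1 count each, Lgalsl2 had 3 counts in all, and Lgals7 had between 0 and 8 counts in a library. Lgalsl, which encodes a galectin-related protein, passed the filter and was not chosen as a member. It went from 34.1 to 26.3 CPM in DDKC_9750, from 68.9 to 52.5 CPM in DDKC_9790 and from 30.6 to 23.8 CPM in DDKC_9804. Its log2 fold change was thus nearly equal in the lines, at -0.37, -0.39 and -0.36, and -0.38 in the fit (SE 0.11, adjusted p = 0.578, and 0.00149 with the 12 libraries as separate samples, in edgeR's test).

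Galectins act through the glycoproteins they bind and the enzymes that build their sugar ligands. Each of 3 lists of 16 genes was tested in full, and 0 genes of any list had an adjusted p under 0.05 for rDKK3 on the summed samples. Over all genes the shares were 7.95% higher and 10.1% lower with rDKK3 in the 12 libraries, and 35.3% different between lines. Among the glycoprotein partners, 5 were higher and 3 lower with the 12 libraries as separate samples, 10 differed between lines on the summed samples, and the median log2 fold change was 0.09. Havcr2, which encodes the galectin-9 receptor TIM-3, measured 0.299 and 0.194 CPM in DDKC_9750, 22.6 and 33.5 CPM in DDKC_9790, and 23.0 and 87.8 CPM in DDKC_9804, untreated and treated. Line DDKC_9750, which had the most Lgals9, thus had the least Havcr2, near the floor. Untreated DDKC_9790 and DDKC_9804 were nearly equal in Havcr2, so only the treated samples gave the reverse of the Lgals9 order for these lines. Havcr2 was highest in the treated DDKC_9804 sample, where Lgals9 was lowest. Its log2 fold change was 1.13 in the fit (SE 0.39, adjusted p = 0.578 in edgeR's test), and it is otherwise known from T cells and myeloid cells, of whose 6 listed markers Cd3e and Adgre1 were at 0 and Ptprc and Itgam at no more than 6 counts each. Csf1r lay between 5.81 and 10.3 CPM, and Cd68 went from 2.03 to 3.01 CPM in DDKC_9750, from 23.2 to 38.1 CPM in DDKC_9790 and from 2.65 to 6.73 CPM in DDKC_9804. Muc1, a mucin on which galectin-3 binds, ranged from 161 and 273 CPM in DDKC_9750 to 12.5 and 13.1 CPM in DDKC_9790 and 0.542 and 0.821 CPM in DDKC_9804. Nrp1, which encodes a co-receptor for vascular growth factors that galectin-1 also binds, was lower with rDKK3 in every line, with log2 fold changes of -0.39, -0.84 and -1.90 (-1.05 in the fit, SE 0.31, adjusted p = 0.578 in edgeR's test). Mcam, an adhesion molecule, was low in DDKC_9790, with 0.344 and 0.108 CPM. It measured 9.87 and 7.57 CPM in DDKC_9750 and 4.08 and 4.11 CPM in DDKC_9804. Ceacam1 was named after its values were seen, as the largest rDKK3 change of the 16 partners, with a mean log2 CPM of only 2.87. It measured 4.42 and 22.3 CPM in DDKC_9750, 0.43 and 1.30 CPM in DDKC_9790, and 4.99 and 12.2 CPM in DDKC_9804, untreated and treated. It was higher in all 3 lines, by 2.31, 1.41 and 1.28 on the log2 scale (1.77 in the fit, SE 0.29, adjusted p = 0.578 in edgeR's test). The value in DDKC_9790 rests on few counts.

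The 16 enzymes of N-glycan branching, poly-N-acetyllactosamine extension and capping moved by a median of -0.02 (log2). With the 12 libraries as separate samples 2 of 16 were higher (7.95% of all genes) and 1 lower (10.1%), and 8 of 16 differed between lines on the summed samples (35.3%). Mgat4a, which adds a branch to N-glycans, was higher with rDKK3 by 0.81, 0.50 and 0.54 on the log2 scale in the 3 lines (0.62 in the fit, SE 0.12, adjusted p = 0.578 in edgeR's test). Mgat5, whose branches carry preferred ligands of galectin-3, measured 144 and 75.7 CPM in DDKC_9750, 295 and 355 CPM in DDKC_9790, and 265 and 306 CPM in DDKC_9804. It was lower with rDKK3 in DDKC_9750 and higher in the other lines. Gcnt1, which branches O-glycans, stood at 137 and 152 CPM in DDKC_9790 and at no more than 25.8 CPM in the other lines. Of the 16 genes of the response to damaged endosomes and lysosomes, in which galectin-3, galectin-8 and galectin-9 take part, 1 of 16 was higher (7.95% of all genes) and 0 lower (10.1%) with the 12 libraries as separate samples, and 4 of 16 differed between lines on the summed samples (35.3%), namely Sqstm1, Optn, Tax1bp1 and Gabarapl2. The median log2 fold change of the 16 genes was 0.00. The autophagy kinase gene Ulk1 was higher by 0.45, 0.45 and 0.04, and Gabarapl2, which encodes an autophagosome protein, changed by -0.32, -0.36 and -0.66 in the 3 lines (log2).

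**Figure D4:**
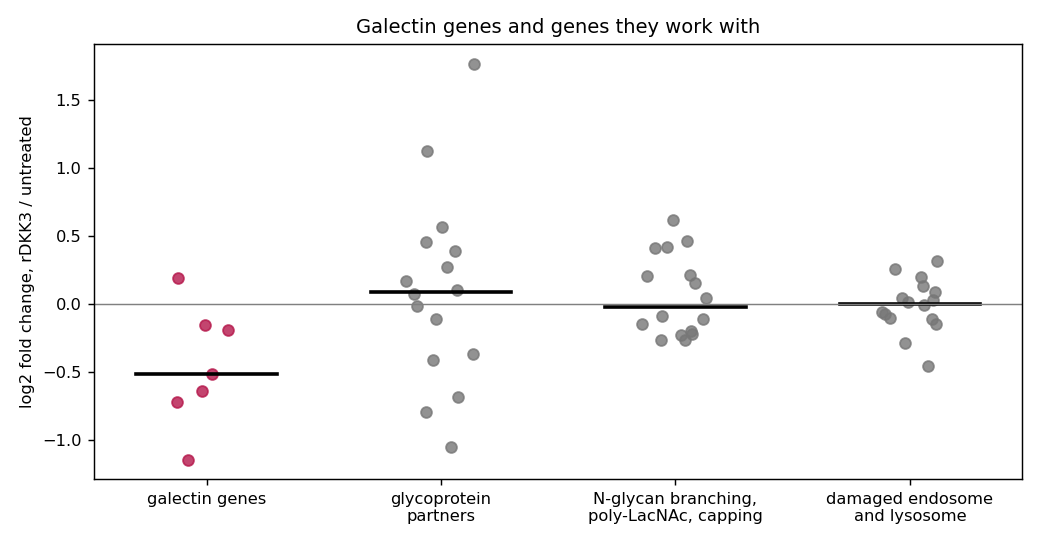
Log2 fold change with rDKK3 in edgeR's fit over the lines for the 7 galectin genes (red) and the 3 lists of 16 genes (gray), with a black line at each median. The galectin median lies at -0.51, which is the value of Lgals4, and the medians of the lists lie between -0.02 and 0.09. In single lines Lgals4 changed by 0.11, -1.07 and -0.64. The genes were chosen with earlier results of these data known, so the medians are a description only.

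Over the 6 samples, the protein-coding genes whose log2 CPM followed each member most closely were found among 9824 genes, by Pearson's r and as a description. The closest were Hnrnpf for Lgals1 (r = 0.995), Gstm1 for Lgals2 (0.998), Zcrb1 for Lgals3 (0.999), Pink1 for Lgals3bp (0.968), Fstl1 for Lgals4 (0.994), Nbas for Lgals8 (0.982) and Tm2d3 for Lgals9 (0.998). An r over 0.95 was reached by 208 genes for Lgals3, 158 for Lgals9, 145 for Lgals2 and 114 for Lgals4, but by 15 for Lgals1 and 4 each for Lgals3bp and Lgals8. The members that differed between lines had the larger numbers of similar genes, and 35.3% of all genes tested differed between lines too. These numbers cannot be told apart from the line difference, and the number for a typical gene was not counted. The 6 points share lines and libraries in pairs.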

How the data were processed

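The authors aligned read pairs of 12 strand-specific libraries to GRCm39 with STAR 2.7.9a, per the submitters' processing notes, and deposited raw counts per gene without normalization. They listed DESeq2 1.38.0 for their own tests. Spike-in rows, 92 in number with 0 counts, were left out here. The 7 members and the gene lists were chosen with earlier results of these data known. Named by rule were all members, all other galectin-family rows and, in each list, up to 3 genes called for each contrast with the largest differences plus the 2 with the largest rDKK3 change among those whose mean log2 CPM in edgeR reached 3.

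The counts of the 2 libraries of each line and condition were summed. The 15165 genes kept by edgeR's filter over the 12 libraries were fitted with edgeR 4.0.16 in R 4.3.3 (quasi-likelihood test, TMM, line and treatment in the model, Benjamini-Hochberg adjustment over all genes, threshold 0.05). Treated and untreated samples are paired by the cell line that the labels name. Log2 CPM used a prior count of 2. A log2 fold change in a line is the difference of these values. Intervals and floors cover counting error only. Whether paired libraries are separate cultures is not given in the sources used here. The tests were run first on simulated counts in which every line responded equally to rDKK3, so unequal responses between lines were not covered. Alternatives covered the 12 libraries, library number series, DESeq2 1.42.0, RLE size factors, no filter, no line block and samples left out. A further allele of the mice is not reported here.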

Additional observations from a re-analysis of the deposited data

Results flagged for a closer look

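The libraries of different lines moved in opposite directions with rDKK3 for 3 members, and this difference between lines was not tested. For Lgals3bp the log2 fold change was 0.10 in line DDKC_9790 and -0.55 in DDKC_9804. Lgals4 had a log2 fold change of 0.11 in line DDKC_9750, -1.07 in DDKC_9790 and -0.64 in DDKC_9804. Lgals9 had 0.13 in DDKC_9750, -0.28 in DDKC_9790 and -1.91 in DDKC_9804. In each of these lines the treated and untreated libraries did not overlap, and 37.8% of all genes tested had libraries apart in opposite directions in different lines.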

How the results depend on the processing

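The count of genes with an adjusted p under 0.05 for rDKK3 was 1 on the summed samples in the edgeR fit. It was 90 with no filter, 2744 with the 12 libraries as separate samples, 3124 with the library number series added, 6 in the lower series alone, 103 with DESeq2, 0 with no replicate block on the summed samples and 0 with no replicate block on the 12 libraries, and 0 to 2 with a line left out. Members called for rDKK3 were 0, against 1 without the filter, 3 with the 12 libraries, 3 with the series, 1 with DESeq2 and 0 to 0 with a line left out. Genes that differed between lines numbered 5348, and 11790 with the 12 libraries, 12211 with the series and 1070 to 6709 with a sample left out (1070 without untreated DDKC_9790 and 1178 without treated DDKC_9790). Members called for the line difference were 4, against 6 with the 12 libraries, 6 with the series, 5 with DESeq2 and 1 to 4 with a sample left out. The sign turned for Lgals3bp with rDKK3 without line DDKC_9804 (0.050, and -0.27 at the other end of the range, without line DDKC_9790). Line differences turned without untreated DDKC_9750 for Lgals2 in DDKC_9790 against DDKC_9750 (-0.29, up to 1.20 over the samples left out) and Lgals8 in DDKC_9804 against DDKC_9750 (-0.049, up to 0.20), without untreated DDKC_9790 for Lgals3bp (-0.064) and Lgals8 (0.024) in DDKC_9804 against DDKC_9790, and without untreated DDKC_9804 for Lgals3bp in that pair (-0.18, up to 0.42). The cause was not tested. No other member's fold change with rDKK3 in the fit over the lines changed sign under the alternatives run, whereas within line DDKC_9790 that of Lgals8 was -0.06 in the lower and 0.04 in the higher library numbers. With no replicate block on the summed samples, the rDKK3 fold change (log2) was -0.093 for Lgals4 and -0.14 for Lgals9, against -0.51 and -0.64. The counts of 4 and 5 for Lgals2 in treated DDKC_9804 limit its fold change there.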
